A study of Homo sapiens with 26 samples.

Results

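GAS5, ZFAS1 and SNHG1, SNHG5, SNHG6, SNHG8, SNHG12, SNHG15 and SNHG16 are 9 long noncoding RNA genes whose introns carry small nucleolar RNAs (snoRNAs). They were taken by gene symbol from a list of names, which was drawn up with earlier results of these data known. All 9 stand in the count tables of a drug experiment, which hold 16430 genes, and in the FPKM tables of a recovery experiment, which hold 64235 entries. All 9 passed the filters of both. RNA came from MV4-11, a human cell line of acute myeloid leukaemia in which the FLT3 receptor is mutated and active. In the drug experiment, groups of 3 libraries came from cells given 10 nM quizartinib with 100 nM dexamethasone for 48 h or 5 days, 10 nM quizartinib alone for 48 h or 5 days, 100 nM dexamethasone for 48 h, or DMSO for 48 h. Quizartinib inhibits the FLT3 kinase and dexamethasone is a synthetic glucocorticoid. In the 5 day combination, dexamethasone was added on day 3. No DMSO or dexamethasone group was taken at 5 days, so time and drug cannot be told apart in the 5 day cells set against DMSO. In the recovery experiment, groups of 2 libraries came from untreated cells, from the survivors of 48 h of 100 nM quizartinib, and from survivors kept without drug for a further 13 or 30 days. Nothing in the labels tells separate cultures from repeated libraries, so the p-values describe the spread among libraries, which may be technical. In bulk RNA of this kind, fewer cells of a type and less RNA per cell cannot be told apart.

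A snoRNA host gene makes a pair of products from a single transcript. Splicing removes introns, from which box C/D snoRNAs, guides of ribose methylation, or box H/ACA snoRNAs, guides of pseudouridylation of ribosomal RNA, are trimmed. The joined exons of many such hosts start with a C followed by a run of pyrimidines, the 5′ terminal oligopyrimidine (TOP) tract that also opens ribosomal protein mRNAs, and they are degraded by nonsense-mediated decay when ribosomes read them. GAS5 was named for its accumulation in growth-arrested cells, and its RNA is known to bind the glucocorticoid receptor.

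The first bases of the hosts are shown because a TOP tract is the sequence feature that most of them have in common, whichever way their RNA moved. GENCODE 29 on GRCh38 lists at least 1 transcript that opens with a C and 4 further pyrimidines for 8 of the 9 genes, against 6.75% of 57133 annotated genes. Because these hosts have many annotated transcripts, the share per transcript is also given: 23 of their 132 transcripts (17.4%), against 2.41% of 206694 transcripts. The exception was SNHG15. Each line gives the first 30 bases, 5′ to 3′, of the start shared by the largest number of such transcripts, with the tract in capitals. SNHG15 has no such transcript. Its line gives a start that only 1 of its 10 annotated transcripts has, taken by the order of transcript names. SNHG6 is not printed.
GAS5, chr1:173867960-173867989, minus strand: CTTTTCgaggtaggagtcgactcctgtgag
ZFAS1, chr20:49278642-49278671, plus strand: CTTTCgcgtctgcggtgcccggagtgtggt
SNHG5, chr6:85678704-85678733, minus strand: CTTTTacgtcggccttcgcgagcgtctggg
SNHG1, chr11:62855450-62855479, minus strand: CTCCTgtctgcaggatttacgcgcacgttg
SNHG16, chr17:76557769-76557798, plus strand: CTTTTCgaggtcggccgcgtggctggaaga
SNHG12, chr1:28581844-28581873, minus strand: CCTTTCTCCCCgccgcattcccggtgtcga
SNHG8, chr4:118278758-118278787, plus strand: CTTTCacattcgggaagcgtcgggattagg
SNHG15, chr7:44986541-44986570, minus strand, no tract: ccgccatcctgggccccacgtgttgcctga

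GAS5 and SNHG16 open with the same 11 bases, CTTTTCGAGGT, and moved in opposite directions under quizartinib at 48 h, GAS5 up (log2 fold change 0.75) and SNHG16 down (-0.88). SNHG12 has the longest tract, 11 pyrimidines. For GAS5, 6 of 29 annotated transcripts open with a TOP tract. For SNHG1 and SNHG8, 1 annotated transcript each opens in this way, of 25 and 5. The RefSeq promoters on GRCh38 (250 bases before to 50 after the annotated start) hold an entry for 7 of the genes, not for SNHG6 and SNHG15. A C-led run of at least 5 pyrimidines beginning within 10 bases of that start was found in 5 of these 7, against 32.3% of 27305 promoters. GAS5 and SNHG1 lacked it, with longest C-led runs of 1 and 3 bases there. The tracts printed above for GAS5 and SNHG1 are thus not at their RefSeq starts. CACGTG, the E-box that MYC can bind, was found in 0 of the 7 and in 7.43% of all promoters. The first 30 bases of SNHG15 printed above hold it once, and those of the other printed hosts do not. The full palindromic glucocorticoid response element was in 0 of the 7 and in 1 of all promoters, and a single arm of it, TGTTCT, read on both strands, was in 0 of the 7 and in 14.9% of all promoters.

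Total counts per library ran from 14795190 to 24990476, and each host had between 314 and 7708 reads in a library. The 9 hosts together took 1015 to 1274 CPM (counts scaled to library size) in quizartinib cells of 48 h, 828 to 860 CPM in quizartinib cells of 5 days, and 882 to 1182 CPM in DMSO cells. Of 8 myeloid markers, all 8 were listed, among them CD33 at 67.9 to 108 CPM. Together they summed to 1761 to 2272 CPM in quizartinib cells of 48 h, 2093 to 2237 CPM in quizartinib cells of 5 days and 1334 to 1691 CPM in DMSO cells. The markers did not all move together. Under quizartinib at 48 h, 5 were called higher and 2 lower, MPO (log2 fold change -1.03) and SPI1 (-0.23). LYZ, the largest part of the sum, was not called (792 ± 250 CPM in quizartinib cells and 685 ± 153 CPM in DMSO cells). The part of these markers in the host results was not tested. Of 10 markers of other cell types, 7 are not listed in the count tables, and the other 3 summed to between 3.50 and 15.9 CPM in any library. The abundant small RNAs 7SK and 7SL took 16% to 18.8% of the counts in quizartinib cells of 48 h, 21.5% to 31.6% in combination cells of 48 h, and 10.2% to 12.4% in DMSO cells. With these RNAs left out before scaling, no call on a host changed. Replicate 3 had the highest level of most hosts in 5 of the 6 groups: 7 of 9 in the 5 day combination, 6 in the 48 h combination, 8 in quizartinib at 48 h, 7 in dexamethasone and 8 in DMSO cells. In quizartinib cells of 5 days it had the highest level of 3 of 9.

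Under quizartinib for 48 h, 7 of the 9 hosts changed, in both directions. With edgeR's quasi-likelihood test, 4 of 9 were higher than in DMSO cells, where 29% of 16430 genes were higher, and 3 of 9 were lower, where 30.4% of genes were lower (adjusted p under 0.05). These shares are not far from those of all genes, so what follows describes single hosts and their direction, not their number. Their median log2 fold change was -0.09, beside 0.02 over all genes.

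Hosts of box C/D snoRNAs made up both sides. ZFAS1, which carries the SNORD12 family, had 244, 254 and 318 CPM in quizartinib cells of 48 h, against 86.2, 91.3 and 139 CPM in DMSO cells. Every quizartinib library lay above every DMSO library. The fitted log2 fold change was 1.36 ± 0.18 (SE, adjusted p = 5.44e-06), the largest among the 9. GAS5, which carries 10 snoRNAs including SNORD44 and SNORD74 to SNORD81, had 264, 254 and 323 CPM in quizartinib cells, against 137, 153 and 211 CPM in DMSO cells. The groups again did not overlap, and the log2 fold change was 0.75 ± 0.16 (adjusted p = 7.46e-04). SNHG6, the host of SNORD87, had 123, 119 and 133 CPM in quizartinib cells, against 68.3, 77.1 and 104 CPM in DMSO cells, a log2 fold change of 0.59 ± 0.14 (adjusted p = 0.00126).

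SNHG5, the host of SNORD50A and SNORD50B, was less firm. It had 75.7, 67.8 and 93.7 CPM in quizartinib cells, against 37.0, 38.8 and 69.9 CPM in DMSO cells, and DMSO replicate 3 lay above the lowest quizartinib library. Its log2 fold change was 0.70 ± 0.24 (adjusted p = 0.0174). The call was lost without DMSO replicate 1 (adjusted p = 0.0865), DMSO replicate 2 (0.0812) or quizartinib replicate 3 (0.0753), while without DMSO replicate 3 the log2 fold change was 1.06 (adjusted p = 5.47e-04).

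SNHG1 and SNHG16 fell, although they too carry box C/D snoRNAs. SNHG1, the host of SNORD22 and SNORD25 to SNORD31, had 65.7, 69.7 and 66.2 CPM in quizartinib cells, against 129, 134 and 172 CPM in DMSO cells. Its log2 fold change was -1.11 ± 0.11 (adjusted p = 1.66e-07). SNHG16, the host of SNORD1A, SNORD1B and SNORD1C, had 141, 142 and 184 CPM in quizartinib cells, against 271, 275 and 316 CPM in DMSO cells. Its log2 fold change was -0.88 ± 0.10 (adjusted p = 5.42e-07). For both genes all quizartinib libraries lay below all DMSO libraries.

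Among the hosts with box H/ACA snoRNAs, SNHG12 fell and the others did not pass the test. SNHG12 carries SNORA16A, SNORA44 and SNORA61 together with the box C/D snoRNA SNORD99. It had 18.8, 16.7 and 23.9 CPM in quizartinib cells, against 44.4, 41.5 and 33.4 CPM in DMSO cells, without overlap. The log2 fold change was -1.0 ± 0.31 (adjusted p = 0.0112). SNHG8, the host of SNORA24, had 53.0, 55.5 and 68.8 CPM in quizartinib cells, against 60.1, 62.6 and 65.9 CPM in DMSO cells, and the groups overlapped (log2 fold change -0.09 ± 0.09, adjusted p = 0.424). Without quizartinib replicate 3, SNHG8 was called lower (-0.22, adjusted p = 0.038). SNHG15, the host of SNORA9, had 40.3, 36.0 and 65.0 CPM in quizartinib cells, against 49.2, 49.3 and 70.0 CPM in DMSO cells (log2 fold change -0.25 ± 0.22, adjusted p = 0.325). Same-numbered libraries of these groups deviate together, and with the replicate number as a block SNHG15 was called lower (log2 fold change -0.28, adjusted p = 0.0118). It was also called lower without quizartinib replicate 3 (-0.56, adjusted p = 0.0252) and without replicate 3 of all 48 h groups (-0.38, adjusted p = 0.0266).

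**Figure D1:**
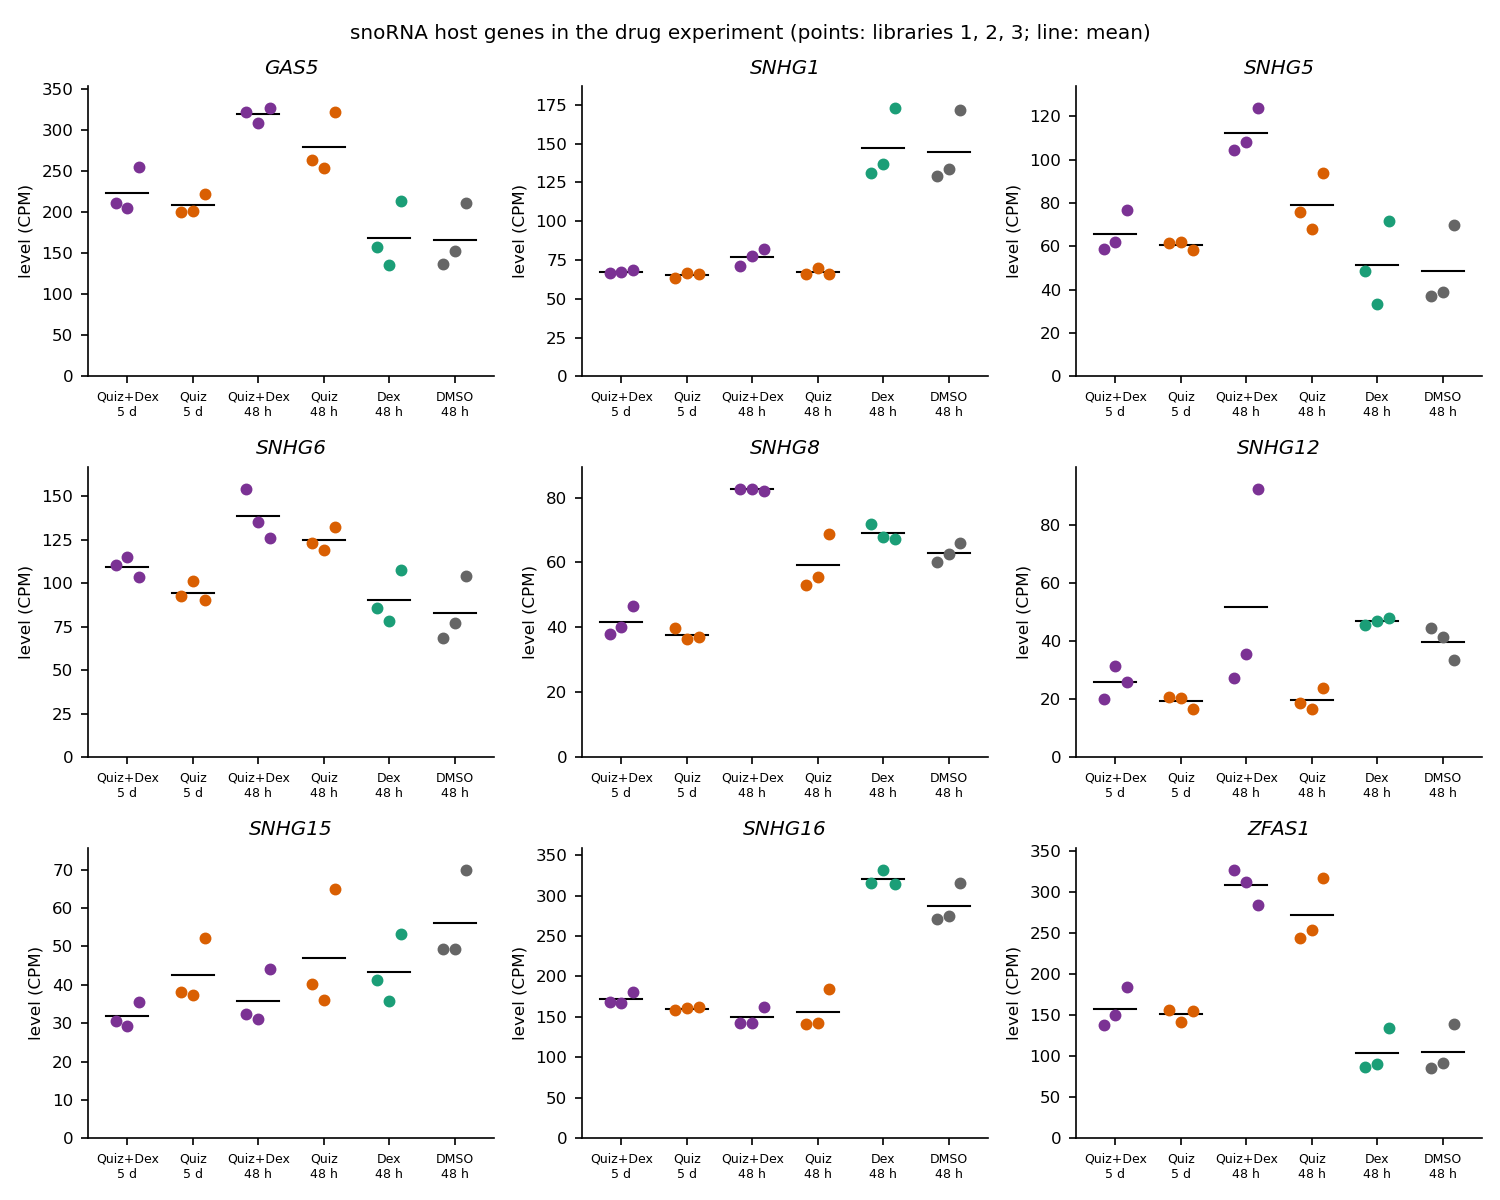
Level of each of the 9 host genes in CPM (vertical axis, from 0) in the 6 groups of the drug experiment, with 3 libraries a group as points in the order of their numbers and the group mean as a line. The quizartinib libraries of 48 h reach 244 to 318 CPM for ZFAS1, above all DMSO libraries, and 65.7 to 69.7 CPM for SNHG1, below all of them.

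Dexamethasone alone moved 0 of the 9 hosts by edgeR, where 12.1% of all genes were called in either direction. At an unadjusted p under 0.05 the count was also 0, where 24.2% of genes were under that p, and DESeq2 called 0. Without replicate 3 of the 48 h groups, SNHG16 was called higher (log2 fold change 0.27, adjusted p = 0.0109). GAS5 had 158, 136 and 214 CPM in dexamethasone cells, against 137, 153 and 211 CPM in DMSO cells, and the groups overlapped over nearly their whole range. Its log2 fold change was 0.02 ± 0.16 (adjusted p = 0.96). In the same libraries 4 of 5 readouts of the glucocorticoid receptor rose, among them FKBP5, a chaperone that the receptor induces, which averaged 1461 ± 54.9 CPM in dexamethasone cells and 104 ± 7.48 CPM in DMSO cells (SD, n = 3 each). The fifth, NR3C1, which encodes the receptor itself, averaged 192 ± 10.6 CPM in dexamethasone cells and 158 ± 8.46 CPM in DMSO cells (adjusted p = 0.053).

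At 48 h SNHG15 was the one host that stood lower in all 6 dexamethasone libraries than in the library of the same number without it, while SNHG1, SNHG8 and SNHG12 stood higher in all 6. It had 41.2, 35.8 and 53.2 CPM in dexamethasone cells, against 49.2, 49.3 and 70.0 CPM in DMSO cells. In combination cells of 48 h it had 32.3, 31.1 and 44.1 CPM, against 40.3, 36.0 and 65.0 CPM in quizartinib cells. In each group the third library stood above the others, so that the groups overlapped while all 6 same-numbered differences were negative. How many of all genes differed in the same direction in all 6 was not counted, so these counts describe single hosts only. Without the block neither comparison passed edgeR's test (adjusted p = 0.323 against DMSO and 0.318 against quizartinib). Same-numbered libraries deviate together in both pairs of groups, and with the block the log2 fold changes were -0.37 against DMSO (adjusted p = 0.0079) and -0.37 against quizartinib (adjusted p = 0.00942).

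The combination at 48 h moved 8 of the 9 hosts from their DMSO level, 5 higher, where 31.3% of genes were higher, and 3 lower, where 31.8% were lower. ZFAS1 had 327, 312 and 284 CPM in combination cells, and its log2 fold change against DMSO was 1.54 ± 0.18 (adjusted p = 1.18e-06). SNHG5 had 104, 108 and 124 CPM, above every DMSO library, with a log2 fold change of 1.20 ± 0.24 (adjusted p = 3.03e-04). GAS5 had 323, 309 and 328 CPM (log2 fold change 0.94 ± 0.16, adjusted p = 8.00e-05), and SNHG6 had 155, 135 and 126 CPM (0.74 ± 0.14, adjusted p = 1.47e-04). SNHG1 and SNHG16 were lower, by log2 fold changes of -0.91 ± 0.11 and -0.94 ± 0.10. SNHG15 was lower as well (-0.65 ± 0.22, adjusted p = 0.0151), a call that was lost without DMSO replicate 3, combination replicate 1 or combination replicate 2 (adjusted p between 0.0515 and 0.0859). SNHG12 was not called (0.37 ± 0.31, adjusted p = 0.3), and without replicate 3 of the 48 h groups it was called lower (-0.46, adjusted p = 0.0205), but higher without combination replicate 1 (0.66, adjusted p = 0.0459).

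Set against quizartinib alone at 48 h, the combination raised 2 of the 9 hosts, where 5.62% of genes were higher. SNHG8 had 82.8, 82.8 and 82.1 CPM in combination cells, against 53.0, 55.5 and 68.8 CPM in quizartinib cells. Every combination library lay above every quizartinib library, and also above every DMSO library. The log2 fold changes were 0.48 ± 0.09 against quizartinib (adjusted p = 0.00194) and 0.39 ± 0.09 against DMSO (adjusted p = 0.00125). SNHG12 had 27.3, 35.4 and 92.4 CPM in combination cells, against 18.8, 16.7 and 23.9 CPM in quizartinib cells. The third combination library stood far above the others, and it also had the highest share of 7SK and 7SL, 31.6%, whose part in the result was not tested. The log2 fold change was 1.38 ± 0.32 (adjusted p = 0.00804), and 0.66 without that library (adjusted p = 0.0366). With the compared groups alone the call was lost (1.37, adjusted p = 0.0648). SNHG5 (log2 fold change 0.50 ± 0.24, adjusted p = 0.223) was called higher with the replicate block (0.52, adjusted p = 0.0455). With the compared groups alone it was called higher as well (0.50, adjusted p = 0.0318). Without replicate 3 of the 48 h groups, SNHG5 (0.57, adjusted p = 0.0119) and ZFAS1 (0.37, adjusted p = 0.0283) were called higher too.

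The difference between the effect of dexamethasone with quizartinib and its effect without quizartinib was tested as an interaction, and 0 of the 9 hosts were called, where 2.23% of genes were called. DESeq2 also called 0. SNHG8 (0.35 ± 0.13, unadjusted p = 0.0161, adjusted p = 0.22) and SNHG12 (1.14 ± 0.44, unadjusted p = 0.0182, adjusted p = 0.231) had the smallest p, and were the 2 hosts under an unadjusted p of 0.05, where 13.3% of genes were.

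**Figure D2:**
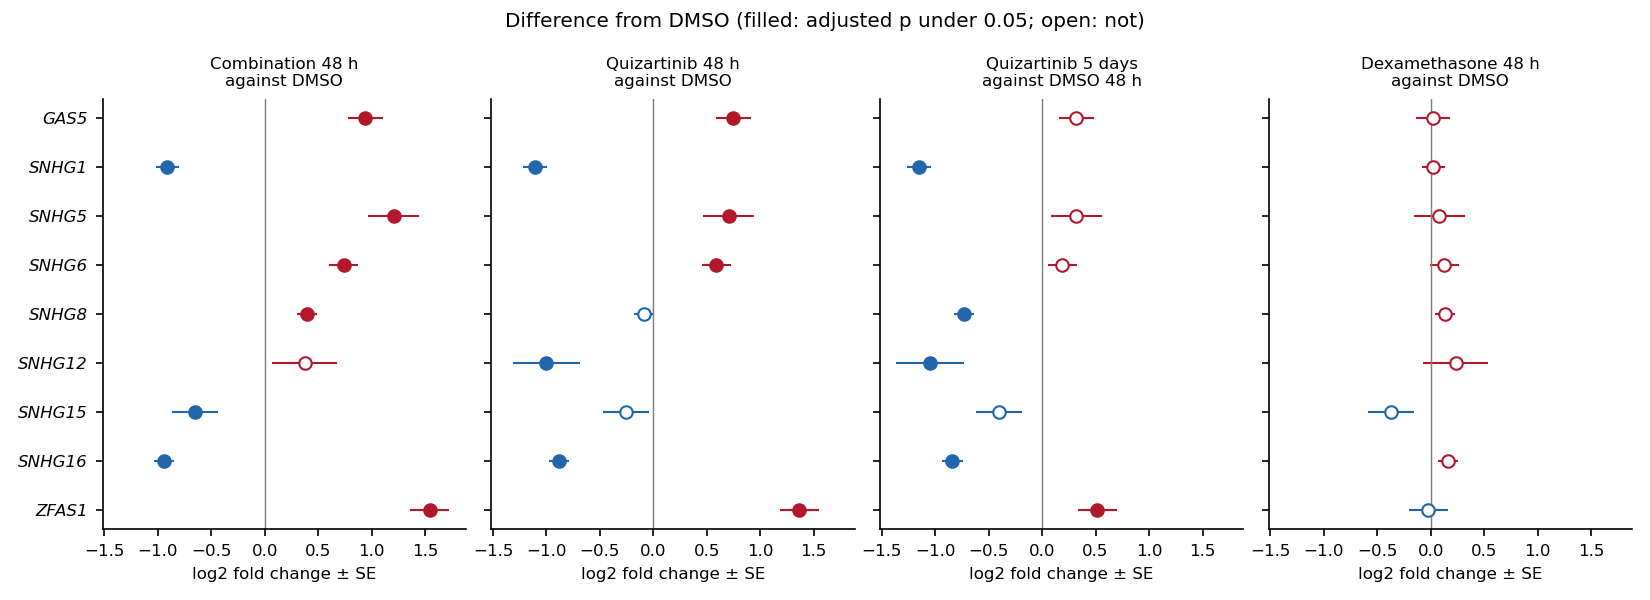
Log2 fold change (horizontal axis, bars are ± SE) of the 9 hosts against DMSO of 48 h, in 4 comparisons that share the same 3 DMSO libraries. Filled points passed an adjusted p under 0.05, and ZFAS1 is the host furthest to the right in the panels of the combination (1.54) and quizartinib (1.36) at 48 h.

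In group means, the lowered hosts stood about as low at 5 days of quizartinib as at 48 h, while the raised ones stood nearer to DMSO. Against DMSO of 48 h, 1 host of 9 was higher, where 30.7% of genes were higher, and 4 were lower, where 32.1% were lower. SNHG1 had 63.2, 66.3 and 65.9 CPM at 5 days (log2 fold change against DMSO -1.15 ± 0.11, adjusted p = 8.81e-08). SNHG16 had 158, 161 and 162 CPM (-0.84 ± 0.10, adjusted p = 8.02e-07), and SNHG12 had 20.8, 20.4 and 16.6 CPM (-1.05 ± 0.32, adjusted p = 0.00818). None of these was called between 5 days and 48 h, with differences of -0.04, 0.04 and -0.04 on the log2 scale, each under its SE.

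ZFAS1 and SNHG8 were lower at 5 days than at 48 h of quizartinib, where 2.28% of genes were lower. The number of all genes called in either direction, 520, depended on single libraries: it ran between 133, without 5 day replicate 2, and 370, without quizartinib 48 h replicate 2, when 1 library of the pair of groups was left out, and was 1068 without replicate 3 of all 48 h groups. ZFAS1 had 157, 141 and 155 CPM at 5 days, against 244, 254 and 318 CPM at 48 h, and 86.2 to 139 CPM in DMSO cells. Its 5 day libraries lay between the other groups without overlap. The log2 fold change was -0.85 ± 0.18 against 48 h (adjusted p = 0.0165) and 0.52 ± 0.18 against DMSO (adjusted p = 0.019). The first call was lost without quizartinib 48 h replicate 3 or any one 5 day library (adjusted p between 0.0505 and 0.0891), and the second without DMSO replicate 1 or 2 or 5 day replicate 1 or 3 (adjusted p between 0.0526 and 0.0957). SNHG8 had 39.7, 36.5 and 37.2 CPM at 5 days, below every library of 48 h, with log2 fold changes of -0.65 ± 0.09 against quizartinib at 48 h (adjusted p = 0.00103) and -0.73 ± 0.09 against DMSO (adjusted p = 2.66e-06).

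GAS5 had 201, 202 and 222 CPM at 5 days of quizartinib, below every quizartinib library of 48 h. Its log2 fold change was -0.43 ± 0.16 against 48 h (adjusted p = 0.173) and 0.32 ± 0.16 against DMSO (adjusted p = 0.094). SNHG5 had 61.6, 62.0 and 58.3 CPM and SNHG6 had 92.7, 101 and 90.2 CPM, and both overlapped the DMSO libraries through DMSO replicate 3. Without that library, GAS5, SNHG5 and SNHG6 were called higher than DMSO at 5 days (log2 fold changes 0.53, 0.68 and 0.38, adjusted p = 0.00721, 0.0126 and 0.0116), which made 4 higher and 4 lower. Dexamethasone added on day 3 moved 0 of the 9 hosts at 5 days by edgeR against quizartinib alone, where 8.64% of genes were called, and 0 at an unadjusted p under 0.05, where 21% of genes were. SNHG15 had 30.4, 29.4 and 35.6 CPM in the 5 day combination, against 38.2, 37.4 and 52.1 CPM with quizartinib alone, and did not overlap (log2 fold change -0.42 ± 0.22, adjusted p = 0.3).

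Other snoRNA hosts and the proteins that work with snoRNAs are set beside these values. Under quizartinib at 48 h, 29% of all genes were higher and 30.4% lower. Of 17 other noncoding hosts, 7 rose and 6 fell under quizartinib at 48 h, with a median log2 fold change of 0.17. SNHG32 rose most (161 ± 7.38 CPM in quizartinib cells and 51.2 ± 11.7 CPM in DMSO cells, log2 fold change 1.66 ± 0.14). SNHG3 fell most (47.4 ± 6.79 CPM in quizartinib cells and 158 ± 13.7 CPM in DMSO cells, -1.73 ± 0.13). Of 22 ribosomal protein genes with a snoRNA in an intron, 7 rose and 0 fell, with a median of 0.25, and RPL30, a protein of the large ribosomal subunit, rose most (0.61 ± 0.13, adjusted p = 6.01e-04). Their share higher was near that over all genes, and their share lower was below it. At 5 days against 48 h, 16 of these 22 fell, where 2.28% of genes were lower, and 0 rose. The median was -0.55, beside 0.00 over all genes. Against DMSO, 11 of the 22 were lower at 5 days, where 32.1% of genes were lower. ZFAS1, GAS5, SNHG5 and SNHG6 thus stood lower at 5 days than at 48 h in their group means, as the ribosomal protein hosts did, although of the 4 ZFAS1 alone was called between these times. With the compared groups alone, GAS5 (-0.43, adjusted p = 0.0373) and SNHG6 (-0.40, adjusted p = 0.0166) were called as well. RefSeq promoters of 14 of the 22 ribosomal protein hosts were at hand, and 12 of the 14 held the C-led pyrimidine run near the start.

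Of 17 other protein-coding hosts, 12 fell and 3 rose at 48 h of quizartinib (median -0.65). RCC1, the guanine nucleotide exchange factor of RAN, whose locus also makes SNHG3, averaged 30.3 ± 2.31 CPM in quizartinib cells and 123 ± 19.9 CPM in DMSO cells (log2 fold change -2.02 ± 0.13). TPT1, which encodes the translationally controlled tumour protein, rose most (2366 ± 199 CPM in quizartinib cells and 1637 ± 269 CPM in DMSO cells, 0.53 ± 0.12). Of 16 genes for snoRNP core proteins and assembly factors, 15 fell and 0 rose, with a median of -1.17. NOP56 and DKC1, which both fell, stand in this list and also among the 17 other protein-coding hosts, here and in survivors below. RUVBL1, an ATPase of the assembly machinery, fell most (-1.68 ± 0.11, adjusted p = 1.45e-09). Of 10 nonsense-mediated decay factors, 4 fell and 0 rose, with UPF1, the central helicase of that pathway, the lowest (92.0 ± 13.2 CPM in quizartinib cells and 168 ± 20.1 CPM in DMSO cells, -0.87 ± 0.13). The 4 of 10 that fell are not far from the 30.4% of all genes that were lower. The 16 snoRNP genes and 10 decay factors had 0 and 2 calls, both lower, under dexamethasone alone, where 12.1% of genes were called.

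**Figure D3:**
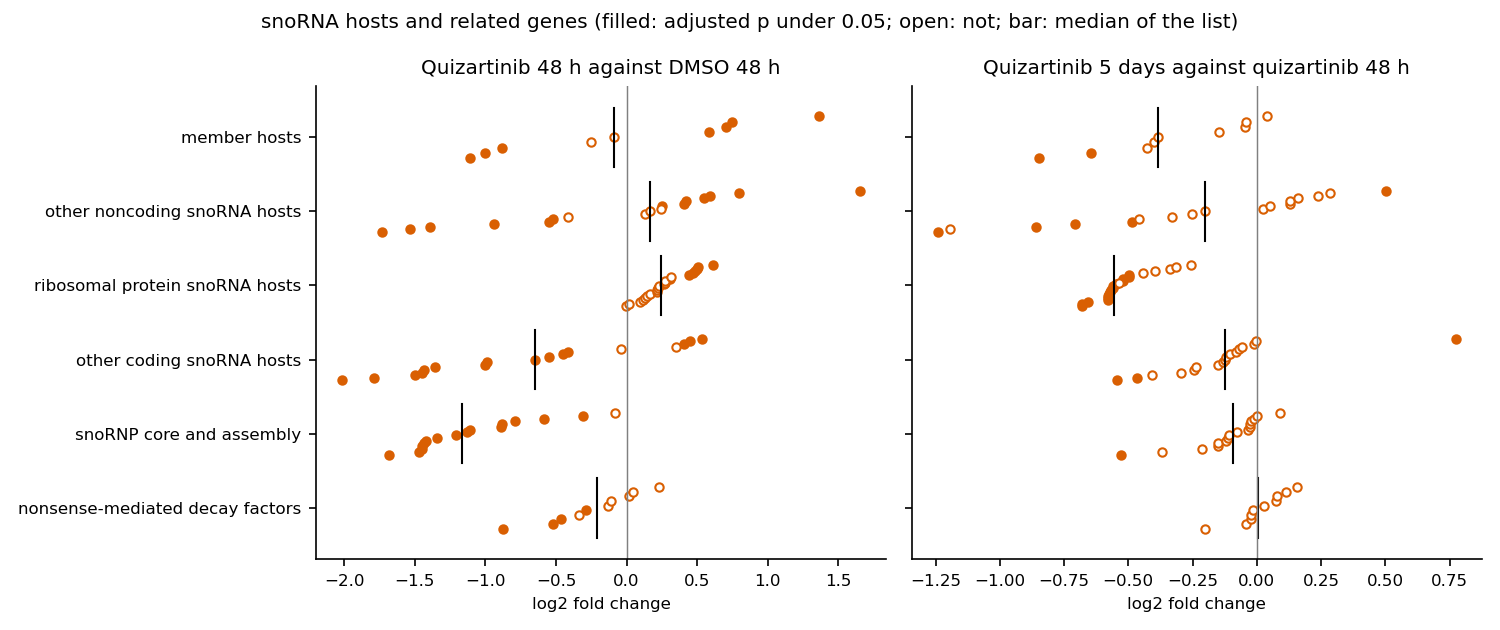
Log2 fold change (horizontal axis) of each gene in 6 lists, for quizartinib at 48 h against DMSO (left) and quizartinib at 5 days against 48 h (right). Each point is a gene, filled where the adjusted p was under 0.05, and the bar is the median, which was 0.25 and -0.55 for the ribosomal protein hosts and -1.17 for the snoRNP genes at 48 h.

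The snoRNAs themselves were poorly covered in these libraries. Of 33 snoRNAs carried by the 9 hosts, 4 stand in the count tables, and none of these 4 reached more than 55 counts in a library. SNORD22, carried by SNHG1, had 18, 18 and 38 counts in quizartinib cells of 48 h, against 10, 10 and 11 counts in DMSO cells, while its host fell (log2 fold change of SNORD22 1.36 ± 0.48, adjusted p = 0.0213). SNORA61, carried by SNHG12, had 7, 23 and 15 counts in quizartinib cells, against 0, 3 and 1 counts in DMSO cells (adjusted p = 0.00526), also with a falling host. SNORA9, carried by SNHG15, had 3, 12 and 27 counts in quizartinib cells, against 3, 6 and 1 counts in DMSO cells (adjusted p = 0.0126). SNORD99, the other snoRNA of SNHG12 in the tables, had 2, 11 and 5 counts in quizartinib cells, against 1, 3 and 1 counts in DMSO cells. Among all 65 snoRNA entries of the count tables, 41 were higher and 0 lower under quizartinib at 48 h, with a median log2 fold change of 1.38 and a median level of 2.25 CPM. Over all genes, 29% were higher and 30.4% lower. Gene counts do not tell a snoRNA from unspliced host RNA across it, and the share of 7SK and 7SL moved with the same groups, whose part in the result was not tested. Of the 33 snoRNAs hosted by the member genes, the FPKM values of the recovery experiment list 19, 9 of them at 0 in every library, where a 0 can be a failed estimate. SNORD22 was listed at 0 and 172 FPKM in survivors, against 207 and 149 FPKM in untreated cells, and was not called (adjusted p = 0.262). SNORD99 was listed at 0 in both survivor libraries, against 111 FPKM and 0 in untreated cells. SNORA9 was at 13.7 FPKM and 0 in survivors, against 0 and 10.6 FPKM in untreated cells. Of the ZFAS1 snoRNAs, SNORD12 was called higher (36.9 and 17.7 FPKM in survivors, listed at 0 in both untreated libraries), while SNORD12B and SNORD12C were listed at 0 in both survivor libraries and at 179 and 256 FPKM in 1 untreated library each.

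The recovery experiment, at a higher dose of quizartinib, gave a second view of the same hosts at 48 h. It is reported in FPKM, so levels can be set beside each other per length. In untreated cells the order was SNHG6, GAS5, ZFAS1, SNHG8, SNHG1, SNHG5, SNHG16, SNHG15 and SNHG12. SNHG6 was at 900 and 1095 FPKM and SNHG12 at 31.1 and 41.8 FPKM. The pairs GAS5 and ZFAS1, ZFAS1 and SNHG8, and SNHG16 and SNHG15 overlapped in that order, and the other neighbours did not. In survivors ZFAS1 took the second place, ahead of GAS5.

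In survivors, limma on log2(FPKM + 1) called 2 of 9 hosts higher than in untreated cells, where 8.14% of 18098 genes were higher, and 2 lower, where 6.39% were lower. ZFAS1 had 755 and 1017 FPKM in survivors, against 325 and 412 FPKM in untreated cells (log2 fold change 1.26 ± 0.21, adjusted p = 0.0251). SNHG5 had 199 and 252 FPKM in survivors, against 94.7 and 126 FPKM in untreated cells (1.03 ± 0.23, adjusted p = 0.0369). In survivors SNHG16 had 43.4 and 37.8 FPKM, against 84.5 and 76.0 FPKM in untreated cells (-0.97 ± 0.24, adjusted p = 0.046). Likewise SNHG1 had 98.3 and 142 FPKM in survivors, against 203 and 257 FPKM in untreated cells (-0.95 ± 0.24, adjusted p = 0.0497). The call on SNHG1 was lost under every alternative tried. The groups of each of these 4 genes did not overlap, but without any one of the 4 libraries 0 of the 9 hosts were called. The number of all genes called was 2630, and 11 without survivor replicate 2.

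The hosts that were not called had values on the same side of 0 as under quizartinib at 48 h in the drug experiment. GAS5 had 538 and 725 FPKM in survivors, against 392 and 512 FPKM in untreated cells (log2 fold change 0.48 ± 0.21, adjusted p = 0.154). SNHG12 had 17.4 and 22.7 FPKM in survivors, against 31.1 and 41.8 FPKM in untreated cells (-0.83 ± 0.34, adjusted p = 0.139). SNHG15 had 46.6 and 54.3 FPKM in survivors, against 74.6 and 79.3 FPKM in untreated cells (-0.60 ± 0.21, adjusted p = 0.0938). These groups did not overlap, nor did those of SNHG8, which had 217 and 264 FPKM in survivors, against 284 and 387 FPKM in untreated cells (-0.47 ± 0.26, adjusted p = 0.248). With 2 against 2 libraries, a full separation has an exact permutation p of only 0.333. How many of all genes separated in this way was not counted, here or for the called hosts. SNHG6 overlapped, with 931 and 1263 FPKM in survivors and 900 and 1095 FPKM in untreated cells. Over all genes, 8.14% were higher and 6.39% lower in survivors. Of the other lists, 10 of 16 snoRNP genes were lower in survivors and 0 higher (median log2 fold change -1.35, beside 0.18 over all genes). GAR1, a core protein of box H/ACA particles, was the lowest (10.5 and 13.6 FPKM in survivors, against 56.9 and 56.3 FPKM in untreated cells, log2 fold change -2.15 ± 0.29). Of 15 other noncoding hosts tested, 2 were higher, SNHG29 the highest (1.04 ± 0.17), and 2 lower, SNHG3 the lowest (-2.11 ± 0.48). Of 17 other coding hosts, 8 were lower and 1 higher, HSPA8, a heat shock cognate chaperone, the lowest (-2.09 ± 0.34) and EEF2, an elongation factor, the highest (0.91 ± 0.17). Of 22 ribosomal protein hosts, 2 were higher, RPL10 the highest (0.80 ± 0.20).

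**Figure D4:**
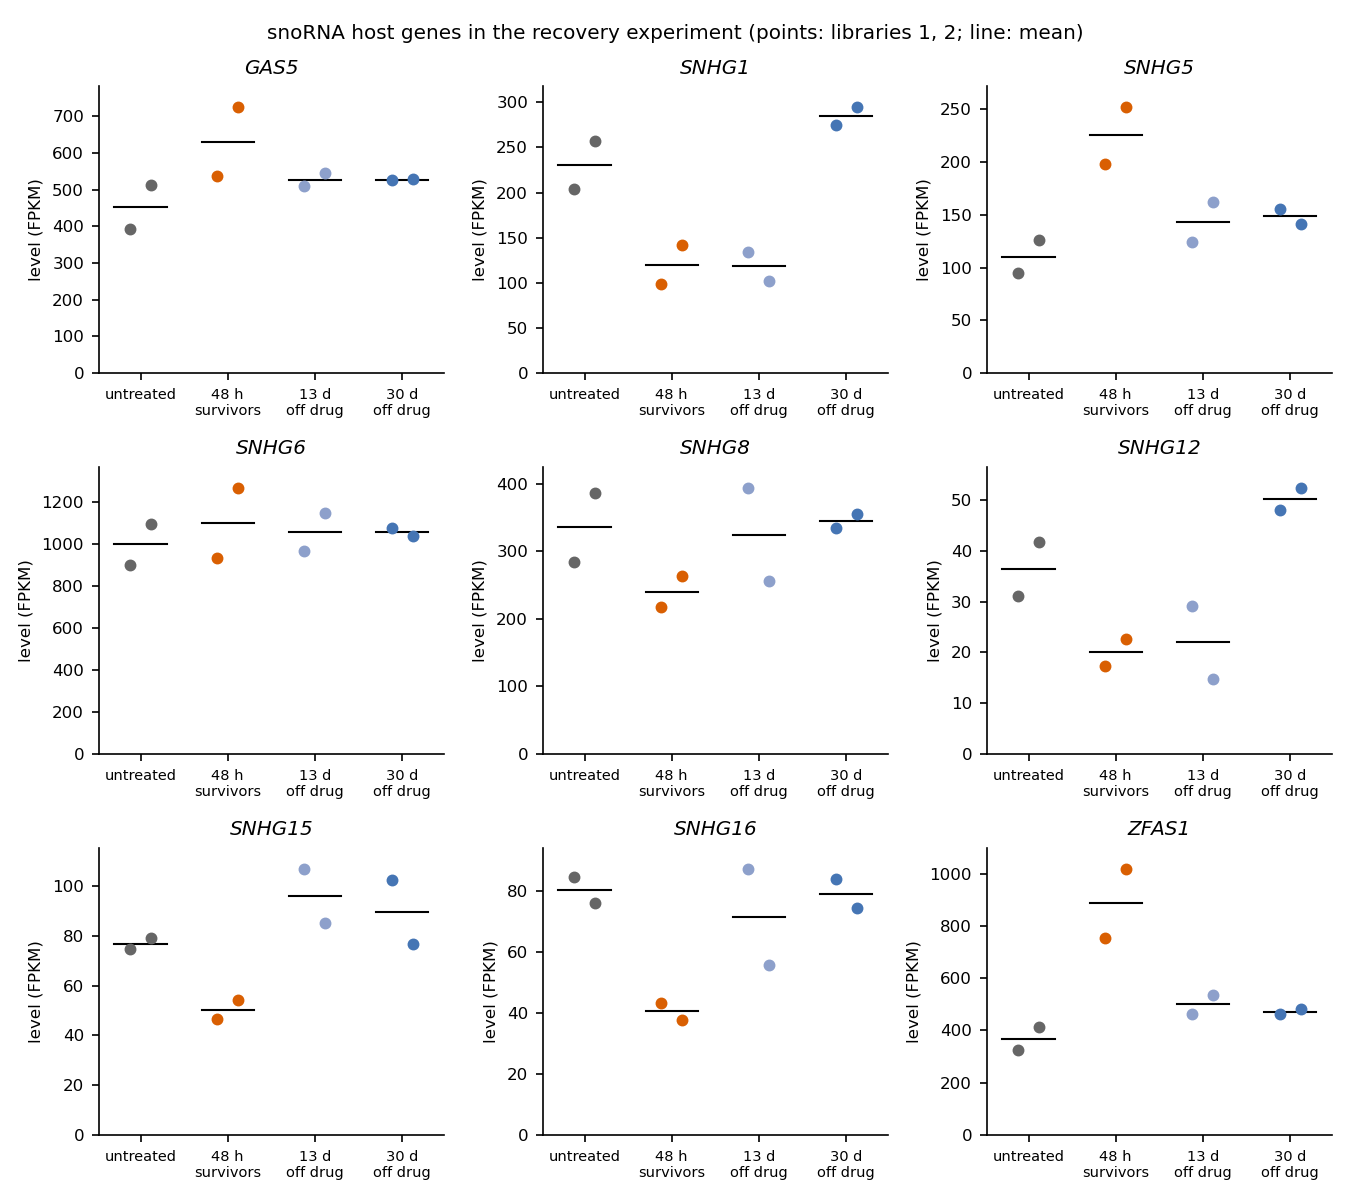
Level of each host in FPKM (vertical axis, from 0) in untreated cells, survivors of 48 h in quizartinib, and survivors after 13 and 30 days off drug, with both libraries as points and their mean as a line. ZFAS1 is at 755 and 1017 FPKM in survivors and at 461 to 538 FPKM after either time off drug, while SNHG1 stays at 103 to 134 FPKM at 13 days and is at 274 and 295 FPKM at 30 days.

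After the drug was removed, host levels stood at different distances from the untreated level. At 13 days against untreated cells 0 of 9 were called, where 0.381% of genes were called, and at 30 days 0 of 9, where 0.127% were. Against survivors at 13 days 0 of 9 were called, where 0.845% of genes were, and at 30 days against 13 days 0 of 9, where 0.403% were. At an unadjusted p under 0.05 these counts were 1, 0, 4 and 2 of 9, where 22.5%, 3.38%, 23.2% and 20% of all genes were. The counts of all genes called hang on single libraries of 13 days. Without 13 day replicate 1, 2231 genes were called against untreated cells in place of 69, and 1733 at 30 days against 13 days in place of 73. Without 13 day replicate 2, 2695 were called against survivors in place of 153. The levels below are therefore given as values, with the calls of hosts under those omissions. SNHG1 had 134 and 103 FPKM at 13 days, as low as the survivors, and 274 and 295 FPKM at 30 days, above both untreated libraries (log2 fold change at 30 days against 13 days 1.27 ± 0.24, adjusted p = 0.0947, and 1.46, adjusted p = 0.036, without 13 day replicate 1). SNHG12 had 29.3 and 14.9 FPKM at 13 days and 48.1 and 52.4 FPKM at 30 days, also above both untreated libraries (1.23 ± 0.34, adjusted p = 0.148, and 1.69, adjusted p = 0.0254, without 13 day replicate 1). Without that library SNHG12 was also called lower at 13 days than in untreated cells (-1.23, adjusted p = 0.0443). SNHG15 and SNHG16 stood above the survivors already at 13 days, with 107 and 85.2 FPKM (0.91 ± 0.21 against survivors, adjusted p = 0.0883) and 87.2 and 55.8 FPKM (0.77 ± 0.24, adjusted p = 0.131). Without 13 day replicate 2 both were called above survivors (1.07, adjusted p = 0.0366, and 1.09, adjusted p = 0.0222). ZFAS1 had 464 and 538 FPKM at 13 days, below both survivor libraries (-0.81 ± 0.21, adjusted p = 0.101), and 461 and 483 FPKM at 30 days, still above both untreated libraries. The myeloid markers summed to 5181 and 7740 FPKM at 13 days, against 1484 and 1846 FPKM in untreated cells. LYZ, the gene for lysozyme, had 7123 and 4373 FPKM of this at 13 days. Their part in the levels at 13 days was not tested.

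Across the 18 drug libraries some of the hosts varied together. The log2 CPM of GAS5 correlated with that of ZFAS1 (Pearson r = 0.970), SNHG5 (0.967) and SNHG6 (0.927), and that of SNHG1 with that of SNHG16 (0.934), while GAS5 and SNHG16 had r = -0.709. SNHG8 and SNHG12 did not follow GAS5 (r = 0.225 and -0.184) and had r = 0.659 with each other. SNHG12 also had r = 0.631 with SNHG1 and 0.550 with SNHG16, where SNHG8 had 0.483 and 0.309. SNHG15 had no r above 0.495, its value with SNHG1 and with SNHG16. These are descriptions over libraries that share drug groups and library scaling. Of 9207 genes with a mean of at least 10 CPM, those most like GAS5 were H1F0 (r = 0.961), HSD17B11 (0.958), IGBP1 (0.956), RPS3A (0.955) and the pseudogene RPL9P9 (0.955). H1F0, a linker histone gene, averaged 53.7 CPM in quizartinib cells of 48 h, 32.5 CPM at 5 days and 18.9 CPM in DMSO cells. The mean profile of the 9 hosts averages hosts that moved in opposite directions. Most like that mean were RPL17 (0.930), RPL12 (0.915), H1FX (0.909), the pseudogene RPS2P5 (0.907) and RPL10A (0.897). RPL17 and RPL12 are themselves snoRNA hosts among the 22 ribosomal protein genes, and reads of ribosomal protein genes can be shared with their pseudogenes.

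Of the 9 genes, 4 overlap a gene on the other strand, and the counting strand is not given in the sources used here, so reads in the overlaps cannot be assigned with certainty. GAS5 (chr1:173863900-173868882, minus strand) overlaps ZBTB37, a zinc finger gene, which averaged 73.3 ± 8.36 CPM in quizartinib cells of 48 h, 99.1 ± 3.92 CPM at 5 days and 41.7 ± 2.97 CPM in DMSO cells. ZBTB37 was thus higher at 5 days than at 48 h, the reverse of the order of GAS5. ZFAS1 (chr20:49278178-49295738, plus strand) overlaps ZNFX1, which did not pass the test under quizartinib at 48 h (69.5 ± 0.71 CPM in quizartinib cells and 72.4 ± 11.1 CPM in DMSO cells, log2 fold change -0.06 ± 0.09). SNHG12 (chr1:28578538-28583132, minus strand) overlaps TRNAU1AP, which fell with it (9.10 ± 1.59 CPM in quizartinib cells and 12.1 ± 1.39 CPM in DMSO cells, log2 fold change -0.41 ± 0.14, adjusted p = 0.0195). SNHG6 (chr8:66921684-66926398, minus strand) overlaps MCMDC2, which rose with it at a much lower level (9.80 ± 0.17 CPM in quizartinib cells and 4.56 ± 2.41 CPM in DMSO cells, adjusted p = 0.00156).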

How the data were processed

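For the drug experiment the authors deposited whole-number counts for each gene. RSEM, STAR 2.7.3, CASAVA, DESeq2 and edgeR are named for GRCh38, per the submitters' processing notes, with no role given, and how estimates became whole numbers is not given in the sources used here. For the recovery experiment the authors deposited FPKM, per the file headers, and the notes name CASAVA, TopHat2 2.0.9 and Cuffdiff with hg38 (GRCh38). Their depth is unknown. RNA was extracted with a small-RNA kit and libraries were made with a directional kit, per the labels' protocols.

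Here, counts of 18 libraries were scaled by TMM and fitted with edgeR 4.0.16 (quasi-likelihood, filterByExpr, R 4.3.3). For these fits the SE was worked back from the test. It is the size of the log2 fold change divided by the square root of the quasi-likelihood F statistic. FPKM of 8 libraries were fitted with limma 3.58.1 on log2(FPKM + 1) for 18098 genes that reached 1 FPKM in 2 or more libraries, so that changes of low genes are understated. Calls are at a Benjamini-Hochberg adjusted p under 0.05 over all genes of a comparison. Scripts were tested on simulated data. An exact permutation test of 1 gene cannot go below p = 0.1 with 3 against 3 libraries, or 0.333 with 2 against 2. DESeq2 1.42.0 and other scalings, filters, pseudocounts and sample sets were tried as alternatives. Members and lists were chosen with earlier results of these data known. Of each list, the genes with the highest and lowest called log2 fold change under quizartinib at 48 h and in survivors are named, and the 5 genes most like GAS5 and most like the mean of the members.

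Replicate numbers come from the sample titles. Deviations of same-numbered libraries from their group means correlated above 0.1 for each of 3 pairs between dexamethasone and DMSO (0.253 to 0.635), quizartinib and DMSO at 48 h (0.100 to 0.268, the lowest just above 0.1) and combination and quizartinib at 48 h (0.124 to 0.271). Python 3.11.15, pandas 2.3.3 and matplotlib 3.10.9 were used. Start-site sequences come from GENCODE 29 and RefSeq (GRCh38).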

Additional observations from a re-analysis of the deposited data

How the results depend on the processing

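Of 1467 log2 fold changes of single hosts recomputed under the alternatives, 1392 kept their side of the threshold and any called direction. Of the others, 38 calls were lost, 36 were gained, and 1 was gained with the sign opposite to the main value. The last was SNHG12 in the combination at 48 h against DMSO, not called in the main fit (0.37, adjusted p = 0.3). It was called lower (-0.46, adjusted p = 0.0205) without replicate 3 of the 48 h groups. RLE size factors, no filter, a 1 CPM filter, DESeq2 and leaving out 7SK and 7SL changed no call on a host. Counts of hosts called moved as follows. With the replicate block they were 1 for dexamethasone, 4 for the combination against quizartinib at 48 h and 1 (SNHG15, -0.41) for the combination against quizartinib at 5 days, where the numbers do not pair. In other comparisons whose numbers do not pair, the block called GAS5 and SNHG15 for 5 days of quizartinib against DMSO and GAS5 for 5 days against 48 h, and SNHG1 lost its call in survivors (adjusted p = 0.0613). Beside these and the calls given above for paired groups, the block changed no other call on a host. Without replicate 3 of the 48 h groups the counts were 1, 4, 8 (quizartinib at 5 days against DMSO) and 2 (combination at 5 days). Omitting it also called SNHG15 for quizartinib and SNHG12 for the combination at 48 h against DMSO. SNHG6 was gained too, as given below. Calls over all genes also moved. Without that replicate they were 11009, beside 10313, for quizartinib at 5 days against DMSO, and 2758, beside 1419, for the combination at 5 days. With the block they were 2478, beside 1993, for dexamethasone and 2108, beside 1685, for the combination against quizartinib at 48 h. With the compared groups alone the counts of hosts called were 4 for quizartinib at 5 days against 48 h and 1 for the combination at 5 days. For survivors the count was 1 with genes above 0 FPKM. Leaving out single libraries gave 4 to 8 for quizartinib at 5 days against DMSO, 1 to 2 for 5 days against 48 h, 0 to 0 for survivors, 0 to 1 for 13 days against untreated cells, 0 to 2 for 13 days against survivors and 0 to 2 for 30 days against 13 days. The causes were not tested. Further calls on single hosts were gained for SNHG6 in quizartinib at 5 days against 48 h without replicate 3 of the 48 h groups (-0.36, adjusted p = 0.0154), SNHG15 in quizartinib at 5 days against DMSO without 5 day replicate 3 (-0.58, adjusted p = 0.0442), and in survivors SNHG15 with the compared groups alone (-0.60, adjusted p = 0.0452) and GAS5 with quantile normalization (0.75, adjusted p = 0.0461). In the 5 day combination SNHG15 was called lower (-0.41) with the compared groups alone and without replicate 3 of the 48 h groups, where SNHG12 was called higher (0.43, adjusted p = 0.0473). SNHG1 lost its survivor call under every alternative tried. Its adjusted p was 0.0523 with a pseudocount of 0.1, 0.0532 with the compared groups alone and 0.0668 with quantile normalization. Over all genes, the dexamethasone calls were 1993, and 579 with the compared groups alone. Survivor calls ran from 11 to 4530, beside 2630. The depth of the FPKM tables is unknown, and groups of 2 leave each survivor call dependent on every library.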
